A study of Drosophila melanogaster with 12 samples.

Results

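The regions described here are autosomal CLAMP sites between genes that carried CLAMP without CP190 in Kc167 cells, a cultured Drosophila melanogaster line labelled as female. They were chosen by their peak calls in mock-treated cells. A CLAMP region was taken where peaks of both mock CLAMP lists overlapped, and it counted as CLAMP-only where no reproducible mock CP190 region overlapped it. Its mean mock summit had to lie on 2L, 2R, 3L or 3R, outside every protein-coding gene and more than 500 bp from the annotated start or end of any of them. Of 2692 reproducible autosomal CLAMP regions, 301 (11.2%) met this rule. They made up 79.6% of the 378 autosomal CLAMP regions between genes. On all arms there were 3655 reproducible CLAMP regions.

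CLAMP is a zinc-finger protein known for its affinity for GA-rich repeats. It has roles at promoters, at the histone locus and, in males, on the X chromosome during dosage compensation, and it is also linked to insulator function. CP190 is a BTB-domain zinc-finger protein that is brought to insulators and many promoters by DNA-binding partners and takes part in contacts between chromosomal sites. Intergenic sites far from promoters can include enhancers, insulators and Polycomb response elements, and a peak call alone does not tell these apart.

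Mock cells received no RNA, and dsCP190 cells received 12 µg of double-stranded RNA against CP190. Mock and dsCP190 cells were both cultured for 6 days. Each of the 4 groups (CLAMP or CP190 antibody, mock or dsCP190) had 2 replicates, and each library had 1 list of peaks. Sample labels name CP190 as the target, whereas the series' design text names CLAMP knockdown, and the sample labels were followed. For CLAMP, the mock lists had 4471 and 4514 peaks on the chromosome arms, against 2468 and 901 after dsCP190. For CP190, the corresponding numbers were 7669 and 7964 against 2047 and 3138. No measure of CP190 RNA or protein was used, so the peak numbers do not establish how far CP190 was depleted. Local background at shared summits was 0.372 and 0.449 times that of the 2 mock libraries in CLAMP dsCP190 replicate 1, and 0.360 and 0.430 times in replicate 2. Both dsCP190 CLAMP libraries were therefore shallower than either mock library, and the treatment and this depth cannot be told apart from peak calls alone.

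In mock cells the 301 regions were of ordinary strength for CLAMP. Their median fold enrichment over local background was 4.44 in mock replicate 1 and 4.66 in mock replicate 2, beside 4.32 and 4.54 for all autosomal CLAMP regions. Enrichment ranged from 1.73 to 26.1 in replicate 1 and from 1.92 to 24.3 in replicate 2. Behind these folds stood a median of 85 and 74 fragments at the summit, from 9 to 514 in replicate 1 and from 8 to 495 in replicate 2. Median width was 645 bp. The strongest summits of the mock lists lay within 50 bp of each other in 234 of 301 regions (77.7%). This share was 71.0% for all autosomal CLAMP regions and 77.9% for the 77 between genes that overlapped CP190. Because the mock calls chose the regions, these values are a description.

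The regions lay in wide gaps between genes, which the 500 bp rule itself favours. The nearest protein-coding gene was at a median of 3390 bp from the summit, the gap between coding genes had a median length of 20401 bp, and the nearest CP190 summit was at a median of 10269 bp. For 755 autosomal regions with CP190 but no CLAMP, placed between genes by the same distance, the first 2 medians were 2885 and 15450 bp. At the edge of the 500 bp rule, the closest members were at 500.5, 515 and 519.5 bp from a gene end, and the closest regions left out were at 498, 498.5 and 499.5 bp. The member at 500.5 bp was 3R:21499183-21499929, next to the homeobox gene C15, with a fold of 5.06 and 5.80 in the mock lists and calls in both dsCP190 lists. The region left out at 499.5 bp had a mock fold of 18.1 and 24.4 and was also called in both. Noncoding genes were not part of the rule, and 50 summits fell inside one, 49 of them in a lncRNA gene and 1 in an snRNA gene.

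After dsCP190 the regions split into 3 groups by CLAMP call. Replicate 1 called CLAMP at 162 of 301 regions (53.8%, 95% Wilson interval 48.2 to 59.4), beside 59.5% of all autosomal CLAMP regions. Replicate 2 called it at 79 (26.2%, interval 21.6 to 31.5), beside 21.3%. All 79 regions called in replicate 2 were also called in replicate 1 (background for both, 21.2%), 83 were called in replicate 1 only (background 38.3%), and 139 (46.2%) in neither (background 40.4%). No region was called in replicate 2 only. The intervals cover counting error only, since regions of a library are not replicates. Members thus stood below the background in replicate 1 and above it in replicate 2.

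These groups followed the signal in mock cells closely. Regions called in both dsCP190 lists had a median of 256 fragments in mock replicate 1 and 244 in mock replicate 2. Those called in replicate 1 only had 114 and 104, and those called in neither had 54 and 51. Ranges overlapped: mock replicate 1 held 51 to 514 fragments where both lists called CLAMP, 27 to 306 where replicate 1 alone did, and 9 to 150 where neither did. Median width also fell in this order, from 921 to 748 to 527 bp, and the median distance between the mock summits was 11, 30 and 32 bp. In contrast, the median length of the gap between genes was alike, at 19948, 20401 and 20547 bp.

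**Figure D1:**
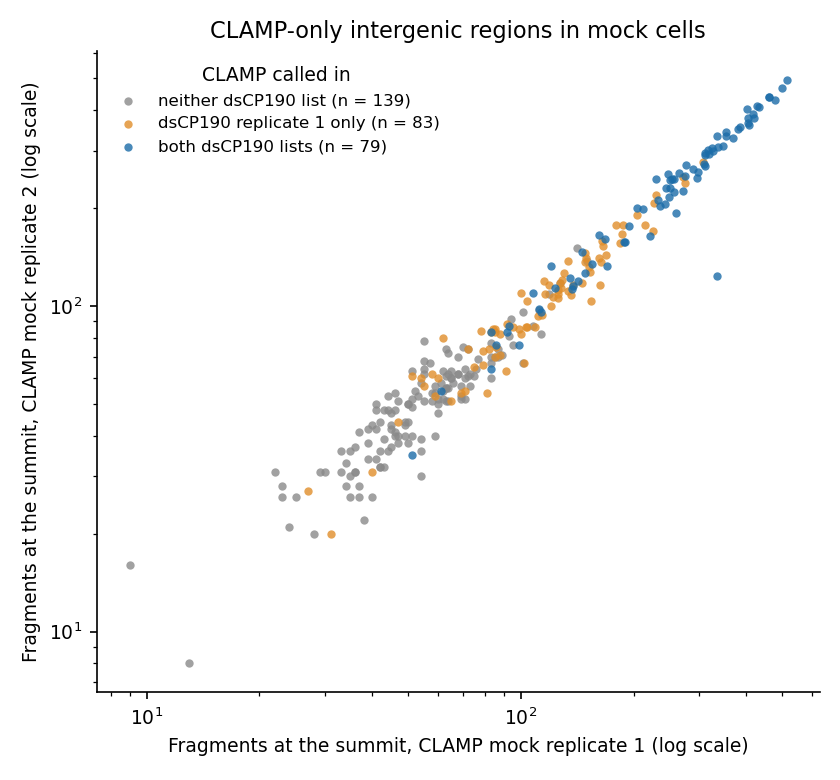
Fragments at the summit in CLAMP mock replicate 1 (horizontal, log scale) and replicate 2 (vertical, log scale) for the 301 regions, 1 point each, coloured by the dsCP190 lists that called CLAMP. Regions called in both lists start at 51 fragments in replicate 1 and fill the upper right, while those called in neither end at 150. The point far from the diagonal is the region near fz, whose strongest mock summits were 1143 bp apart.

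Where both dsCP190 libraries called CLAMP, replicate 1 was the stronger. The median fold was 11.3 in replicate 1 and 6.29 in replicate 2, on medians of 104 and 52 fragments, and the fold was higher in replicate 1 at 76 of 79 regions. The exceptions lay near salm, en and slou. Set beside the mock lists, the fold in dsCP190 replicate 1 was above both mock folds at 55 of 162 called regions and below both at 73. In replicate 2 it was above both at 4 of 79 and below both at 67. The fold and summit counts in this paragraph were not made for other CLAMP regions, so they show no trait particular to members. Fragments were fewer in replicate 2 at 78 of 79 regions, with a median ratio of 0.518 (quartiles 0.462 and 0.605). At the other 491 autosomal CLAMP regions called in both lists the ratio was 0.475 (0.415 and 0.545), with fewer fragments in replicate 2 at 489. The summit had not moved far: it lay within 50 bp of the mean mock summit in 131 of 162 regions in replicate 1 and in 66 of 79 in replicate 2.

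The 10 regions with the highest mock enrichment were called in all 4 CLAMP lists. The highest, 2R:16828459-16829444, was 1161 bp from CG34460 and held 402 and 404 fragments in the mock libraries, 197 in dsCP190 replicate 1 and 114 in replicate 2. Next came 3L:12652906-12653794, with 353, 332, 172 and 90 fragments in the same order. It lay between caup and mirr, 2 homeodomain genes of the Iroquois complex, 31544 bp from caup. Another strong region of that complex, 3L:12692332-12693979, lay 580 bp from mirr and held 500, 468, 253 and 128 fragments. In all 3 regions both mock values lay above both dsCP190 values, before any allowance for depth.

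The others of the 10 included 2R:11469165-11470072 between E(Pc), an Enhancer of Polycomb gene, and inv, the homeodomain gene beside engrailed, with 319, 294, 163 and 101 fragments. On the same arm, 2R:20106117-20107050 was nearest to 18w, a Toll-family receptor gene, with 405, 365, 179 and 65 fragments, and 2R:22241708-22243488 to dve, a homeobox gene, with 416, 388, 198 and 105. On 3R, 3R:16763553-16764665 lay inside lncRNA:bxd of the bithorax complex and held 461, 440, 269 and 189 fragments, the highest values of these 10 in both dsCP190 libraries. The remaining regions were 3R:25080282-25081010 near fd96Ca, a forkhead gene, 3R:13876928-13877725 between the homeodomain genes E5 and ems, and 3R:14372857-14374160 near the homeobox gene NK7.1. In each of the 10 regions the order of the libraries was the same for the dsCP190 pair: replicate 2 held fewer fragments than replicate 1.

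**Figure D2:**
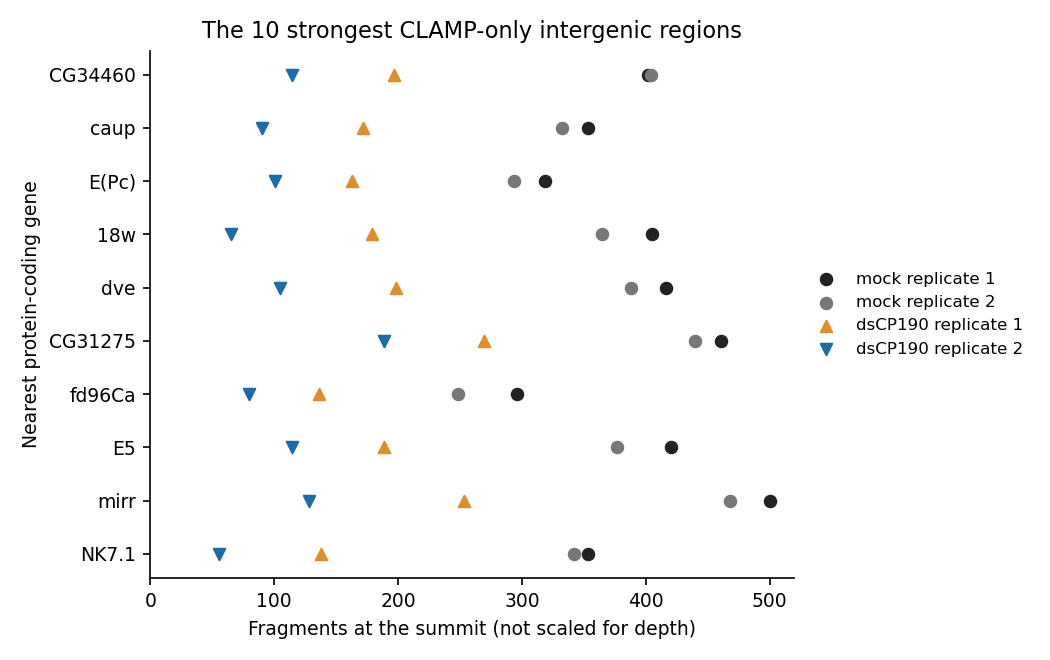
Fragments at the summit (horizontal, not scaled for depth) in the 4 CLAMP libraries for the 10 regions of highest mock enrichment, 1 row per region named by its nearest protein-coding gene. In every row the mock points lie to the right of the dsCP190 points, and dsCP190 replicate 2 is the lowest, from 189 fragments in the lncRNA:bxd region (row CG31275) down to 55 near NK7.1.

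Among regions called in dsCP190 replicate 1 only, the highest by mean mock fold percentile was 3L:15514284-15515060, 1391 bp from MsrA, a methionine sulfoxide reductase gene. It held 188 and 177 fragments in the mock libraries and 70 in dsCP190 replicate 1. The region 2R:20835814-20836924 near insc, which acts in asymmetric neuroblast division, held 186, 167 and 41. The region 3L:18399778-18400689 near rpr, a pro-apoptotic gene, held 164, 137 and 35. Beside Eip75B, an ecdysone-induced nuclear receptor gene, 3L:17947140-17947853 held 149, 141 and 60, and 3R:26229129-26230500 near CG12290 held 272, 250 and 72. All 5 had mock folds between 10.4 and 14.5, and fragments did not follow the order of the folds.

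The regions of highest mock fold percentile called in neither dsCP190 list differed among themselves in depth. The region 3R:26797636-26798523, 1097 bp from Tl, which encodes the Toll receptor, held 150 and 138 fragments with folds of 7.81 and 11.2. The region 3L:698986-700124 near CG13894 held 141 and 151 fragments. The other 3 lay on 3L beyond 23000000 and had fewer fragments: 38 and 22 near UQCR-11, 83 and 77 near AGO3, and 58 and 54 near ND-MLRQ.

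The regions were not spread evenly over the arms. Arm 3L held 109 of them, which is 36.2% of the members against 27.1% of all autosomal CLAMP regions, and 14.9% of the CLAMP regions of that arm. The other arms held 53 (2L), 59 (2R) and 80 (3R), or 9.65%, 9.34% and 10.2% of their CLAMP regions. On 3L, 45.0% of members were called in dsCP190 replicate 1, beside 56.6% on 2L, 57.6% on 2R and 61.3% on 3R.

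The 12 members beyond 23000000 on 3L, the side of the arm toward the centromere, stood apart, and this boundary was set after the values were seen. They had a median of 46.5 and 38.5 fragments on local backgrounds of 8.43 and 6.69, whereas the other 289 members had 86 and 76 fragments on backgrounds of 18.3 and 15.1. Their folds were nevertheless alike, at medians of 4.49 and 5.12 against 4.44 and 4.65. CLAMP was called in dsCP190 replicate 1 at 2 of the 12 and in replicate 2 at none. Without them, 55.4% of members were called in replicate 1 and 27.3% in replicate 2. The 3 members farthest from any coding gene were among them, and the farthest, 3L:26824627-26824945, lay 257211 bp from CG40228 and held 24 and 21 fragments. The part of the lower background in these calls was not tested.

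Calls did not fall steadily with distance to genes, but their share was lowest farthest away. Of 110 regions at 500 to 2000 bp from the nearest coding gene, 59.1% were called in dsCP190 replicate 1 and 29.1% in replicate 2. Of 61 regions more than 10000 bp away, 44.3% and 19.7% were called. The 2 groups between them had 53.1% and 55.1% in replicate 1 and 24.7% and 30.6% in replicate 2. The intervals of the nearest and farthest groups overlapped, at 49.7 to 67.8% against 32.5 to 56.7% in replicate 1. Such overlap does not show that the shares are equal. Median mock percentile was 63.4 in the nearest group and 56.9 in the farthest, and the part of strength was not tested.

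Set against other CLAMP regions of like mock strength, the members differed in opposite ways in the dsCP190 replicates. When all autosomal CLAMP regions were split into quintiles of mock fold enrichment, dsCP190 replicate 1 called 39.2% of members in the middle quintile (interval 29.2 to 50.3) and 65.4% of other regions (60.9 to 69.6). With the other regions weighted to the members' quintiles, replicate 1 called 64.6% of them against 53.8% of members. Replicate 2 called 21.8% of them against 26.2% of members. No test was made on regions, which are not replicates, and the difference did not have 1 direction in both libraries.

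The gap in replicate 1 depended on the measure of strength. In the middle quintile of fold, members held a median of 69 fragments in mock replicate 1 on a local background of 16.4, while the other regions held 89 on 20.3. With quintiles of summit fragments in place of fold, replicate 1 called 65.4% of members and 64.2% of the others in the middle quintile, and over all quintiles 53.8% against 56.6%. The difference in replicate 2 was larger on that scale, at 26.2% against 19.2%, and in its middle quintile 15.4% of members (8.01 to 27.5) were called against 3.29% of others (2.04 to 5.28).

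**Figure D3:**
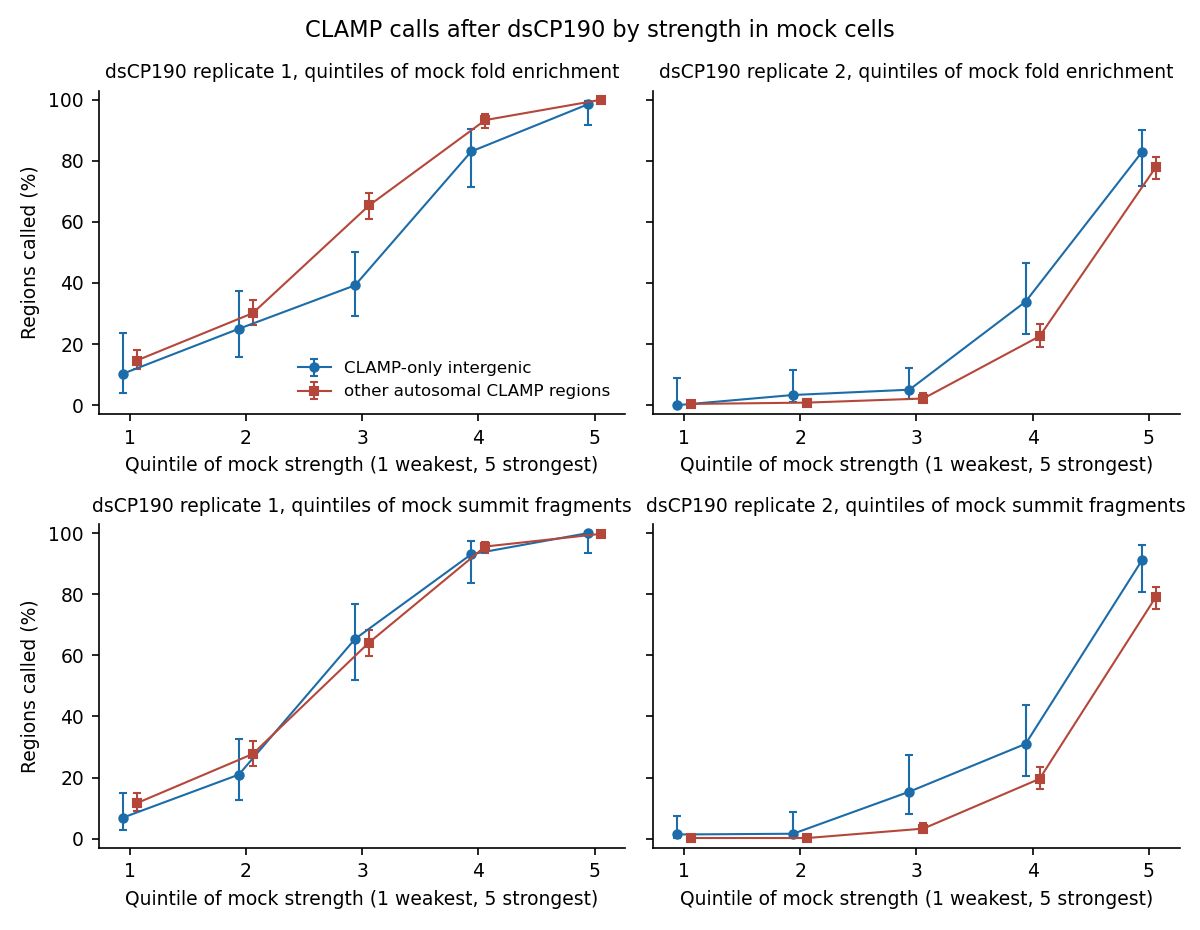
Share of regions with a CLAMP call after dsCP190 (vertical, percent) by quintile of mock strength (horizontal), for the 301 members and the other autosomal CLAMP regions, with 95% Wilson intervals that cover counting error only. Left panels show dsCP190 replicate 1 and right panels replicate 2, and the upper row uses fold while the lower row uses summit fragments. The gap at quintile 3 of replicate 1, 39.2% against 65.4%, closes to 65.4% against 64.2% by fragments, while in replicate 2 the members lie above the others in quintiles 2 to 5 of both rows.

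In the top quintile nearly every region was called in replicate 1, so the fragments themselves could be compared. There, 63 of 64 members and all 475 other regions had a call. The summit held 0.426 times the fragments of mock replicate 1 at members (quartiles 0.333 and 0.487) and 0.371 times at the others (0.320 and 0.423). Divided by the background ratio of the libraries, these medians are 1.14 and 0.997, and against mock replicate 2 they are 1.06 and 0.896. The quartile ranges of members and others overlapped. Replicate 2 called only 53 of the 64 members and 370 of the others, so its values cover called regions only. Divided by the background ratio, its medians against mock replicate 1 were 0.631 at members and 0.492 at the others. Against mock replicate 2 they were 0.569 and 0.437. The 2 dsCP190 libraries thus differed at strong sites, and the cause of this difference was not tested.

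A call also needs depth. With mock fragments and background scaled to the depth of dsCP190 replicate 1, 269 members would reach the lowest −log10 p in that list, and 159 of these (59.1%) were called, beside 65.8% for all autosomal CLAMP regions. For replicate 2, 232 members would reach that list's lowest value and 79 (34.1%) were called, beside 27.7%. Of the members that fell short after scaling, 3 of 32 were called in replicate 1 and 0 of 69 in replicate 2.

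As a share of each list, CLAMP peaks of this kind showed no single direction after dsCP190. Peaks that lay between genes by their own summit and overlapped no reproducible mock CP190 region were 11.5% and 11.3% of the autosomal peaks in the mock lists, and 10.5% and 14.6% in the dsCP190 lists. The dsCP190 values lay on either side of both mock values. Means were 11.4% ± 0.168 (SD, n = 2) and 12.6% ± 2.93 (SD, n = 2), a difference of 1.21 percentage points with p = 1 in a two-sided exact permutation test over libraries, whose smallest possible p is 0.333. Without dsCP190 replicate 2 the difference was −0.861 points, and without replicate 1 it was 3.28 points.

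Homeodomain genes were the most frequent kind of neighbour among the 14 gene lists looked at. They were nearest to 22 regions (7.31%) at 19 genes, beside 6.08% of all 378 autosomal CLAMP regions between genes, members included. Members were 301 of these 378 regions, so the 2 shares could not lie far apart. Of the 378 regions, 23 were nearest to a listed homeodomain gene, and 22 of these were members. The homeodomain share was 1.72% for 755 autosomal intergenic regions with CP190 but no CLAMP. Homeodomain genes were 0.515% of coding genes on these arms. Long gaps give a gene more room to be nearest, so the share of genes is not a like-for-like measure, and no enrichment test was made. CLAMP was called at 18 of these 22 regions (81.8%) in dsCP190 replicate 1 and at 15 (68.2%) in replicate 2, where all autosomal CLAMP regions weighted to the same fold quintiles had 70.5% and 36.0%. The list leaves out dve and HGTX, homeobox genes noticed after the values were seen. With them it covers 25 regions, of which 21 and 18 were called. T-box, Sox, forkhead, GATA and zinc-finger patterning factors were nearest to 15 regions (4.98%) at 11 genes. The share was 4.50% for all 378 CLAMP regions between genes (17 regions, of which 15 were members) and 0.662% for the CP190-only regions. CLAMP was called at 10 (66.7%) in each replicate, where all autosomal CLAMP regions at these quintiles had 77.5% and 52.7%. Median mock percentiles of these lists were 72.2 and 88.0, against 58.1 for all members.

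Members of these lists ranged widely in strength. Among the strong ones, the region 2L:12586687-12587531, 530 bp from nub, a POU-homeodomain gene, held 428, 413, 216 and 123 fragments in mock replicates 1 and 2 and dsCP190 replicates 1 and 2. The region 3R:7000449-7001398, 1746 bp from the Hox gene Antp and inside lncRNA:CR45899, held 477, 429, 253 and 144. The T-box gene H15 was nearest to 2 regions, of which 2L:5403330-5404404 held 368, 329, 153 and 102. All 4 lists called CLAMP at these sites, and the fragments, not scaled for the shallower dsCP190 libraries, were lower in both of them. The folds were not all lower. In dsCP190 replicate 1 the fold was 25.3 near Antp, above 12.38 and 16.01 in the mock lists. Near H15 it was 26.6, above 20.1 and 17.7, and near nub it was 19.57, between 17.08 and 21.37. In dsCP190 replicate 2 the fold was 10.96 near H15 and 15.03 near nub, below both mock folds. Near Antp it was 12.83, between them.

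Weaker sites near homeodomain genes went both ways. Near C15, tup, Optix and slou, which encode homeodomain factors, folds in mock replicate 1 were 5.06, 4.51, 3.60 and 2.37, and all 4 regions were called in both dsCP190 lists. Regions near Dr (4.00), nub (3.54), inv (2.92) and mirr (2.54) were called in neither, and another near mirr (3.34), 1 near lbe (3.41) and 1 near Rx (3.26) in replicate 1 only. In the list of T-box, Sox, forkhead, GATA and zinc-finger genes, 5 regions were called in neither dsCP190 list. They were 3 near the forkhead gene foxo and 1 each near SoxN and Sox15, with folds from 2.24 to 4.38 in mock replicate 1.

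A split of the members by these 2 lists was made after the values were seen and is given without a test. In fold quintiles 4 and 5, all 22 regions near a listed gene were called in both dsCP190 replicates, whereas of 101 other members 90 were called in replicate 1 and 51 (50.5%) in replicate 2. With dve and HGTX added these were 24 regions, all called in both, against 99 others, of which replicate 2 called 49. These genes were added with the calls known, so the count depends on which omitted genes were picked. The lists also leave out klu, a zinc-finger factor gene. The klu region, at a mock percentile of 80.9, was called in dsCP190 replicate 1 only. It was not the only exception among omitted factor genes. In the same quintiles, the regions near rib and bab1 were also called in replicate 1 only. Those near bab2 and TfAP-2 were called in both replicates, and those near chinmo went both ways. These are examples, and omitted factor genes were not counted. Strength was not matched: the 22 regions had a median mock percentile of 93.0 against 80.7 and a median of 292 fragments in mock replicate 1 against 170, and the part of that strength was not tested. In quintiles 1 to 3, replicate 2 called 3 of 15 such regions and 3 of 163 others. Without all 37 of these regions, replicate 2 called 20.5% of the remaining 264 members and replicate 1 called 50.8%. All autosomal CLAMP regions had 21.3% and 59.5%, but that background includes the members, and regions near listed genes were not taken out of it. These sets are therefore unlike, and their closeness in replicate 2 does not show what the listed genes contribute.

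**Figure D4:**
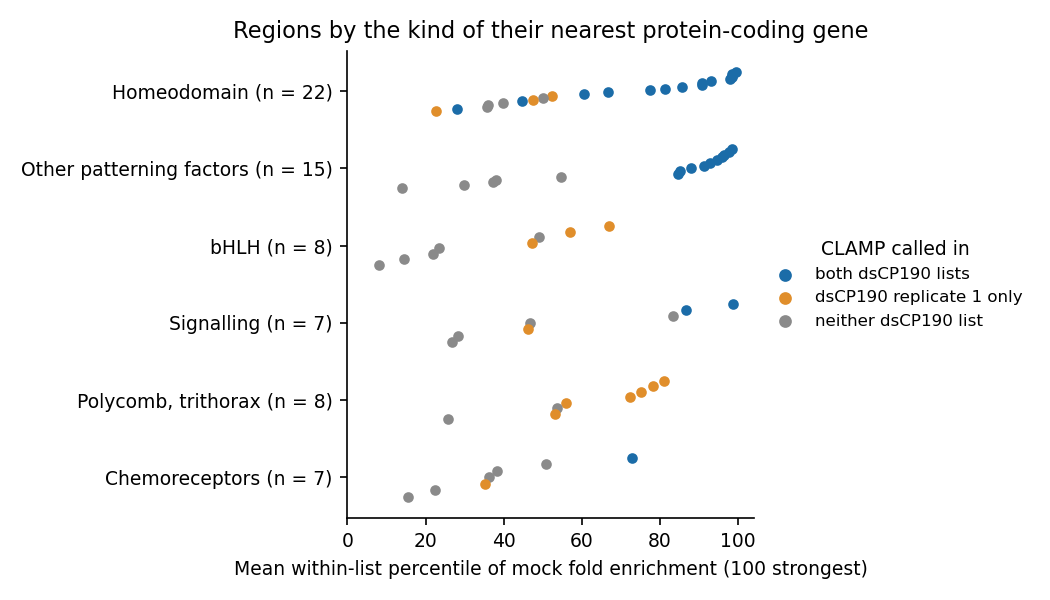
Mean within-list percentile of mock fold enrichment (horizontal, 100 strongest) for members grouped by the list of their nearest protein-coding gene (vertical), 1 point per region, coloured by the dsCP190 lists that called CLAMP. The 10 patterning-factor regions called in both lists are the strongest of their 15, whereas no point of the Polycomb and trithorax row, whose list leaves out E(Pc), was called in both.

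Other gene lists showed different patterns. The 8 regions nearest to genes of the Polycomb and trithorax list lay at 4 genes, Psc, Su(z)2, psq and lola. The list was drawn widely, and the place of lola in these groups was not checked. Of the 8 regions, 6 (75%) were called in dsCP190 replicate 1 but none in replicate 2. All autosomal CLAMP regions at these quintiles had 71.0% and 12.9%. The list leaves out E(Pc), whose region was called in both replicates, as noted after the values were seen. With it 1 of 9 regions was called in replicate 2. None of the 755 CP190-only intergenic regions had a gene of this list as its neighbour. Among all 378 CLAMP regions between genes 9 did (2.38%), of which 8 were members (2.66% of members). Of 8 regions nearest to bHLH genes, those of the E(spl) complex included, 6 lay around hry, the pair-rule repressor hairy, and 3 of the 8 were called in replicate 1 and 0 in replicate 2. A further region near E(spl)malpha-BFM, an E(spl) complex gene without a bHLH domain, is not in the list and was called in neither. Signalling ligands and receptors accounted for 7 regions, of which those near 18w and fz, a Wnt receptor gene, were called in both replicates. Chemoreceptor genes accounted for 7 and ecdysone response genes for 4, 2 of them near Eip75B, whose stronger region, 3L:17948269-17949766, had folds of 18.3, 18.6, 7.37 and 6.09 in the 4 lists. One region each lay near robo2, an axon guidance receptor gene, and Hsp70Ab, and none near hemocyte, insulator protein, ribosomal protein, cuticle protein or histone genes.

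Many regions came in groups. With members within 20000 bp of each other joined, the 301 regions formed 201 groups, of which 146 held a single region and 19 held 3 or more. The largest, of 9 regions, ran from 12984386 to 13039242 on 2R around Psc and Su(z)2, which encode related Polycomb repressive complex proteins. Mock replicate 1 held from 55 to 162 fragments at these 9 regions, 7 were called in dsCP190 replicate 1 and none in replicate 2. A group of 7 around hry on 3L, from 8667932 to 8705618, held 43 to 104 fragments, with 3 calls in replicate 1 and none in replicate 2. Another group of 7 on 3L, from 11242660 to 11297686 around Ir68a, scyl and Dyro, had 2 calls in replicate 1 and 1 in replicate 2. Over all groups of 3 or more, 53.0% of 83 regions were called in replicate 1 and 18.1% in replicate 2, beside 52.7% and 27.4% of the single regions. Median mock percentiles were 52.6 and 61.5 in the same order, so the grouped regions were also weaker.

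CP190 itself was rarely called at these regions in any list, as the rule requires for a call in both mock lists. A CP190 peak in 1 mock list overlapped 14 members (4.65%), beside 5.57% of all 1543 CP190-free autosomal CLAMP regions. After dsCP190, replicate 1 called CP190 at 25 members (8.31%, interval 5.69 to 12.0), beside 7.39%. Replicate 2 called it at 7 (2.33%), beside 3.11%, and both lists at 2, beside 1.62%. These shares were near the background. The peaks were weak, with a median fold of 2.76 and a highest fold of 6.15 in replicate 1, and when every list was limited to peaks with a −log10 q of 10 or more the share in replicate 1 was 0.465% of 215 members.

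The CP190 calls of dsCP190 replicate 1 lay mainly at strong CLAMP sites. In the top CLAMP quintile they covered 14 of 64 members (21.9%, interval 13.5 to 33.4), beside 17.0% of 282 CP190-free regions of that quintile, and in the lower 4 quintiles 11 of 237 members (4.64%), beside 5.23%. They included the lncRNA:bxd region with a CP190 fold of 4.79, the E5 region with 3.21, the mirr region with 2.99, the H15 region with 2.84 and the nub region with 2.76. The lncRNA:bxd region already had a CP190 peak in mock replicate 2, with a fold of 2.44, and the others had none in either mock list. None of these 5 regions was called for CP190 in dsCP190 replicate 2, whose list was longer.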

How the data were processed

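Each of 8 immunoprecipitation libraries had 1 narrowPeak list on build dm6; the 4 inputs were not used. The submitters' processing notes name MACS2 2.1.1.20160309, Bowtie2 2.3.4.1, cutadapt 1.16, deepTools 3.0.2 and Picard 2.18.9, with no role for any. Neither the control library nor the calling threshold is given in the sources used here. A score, a fold enrichment ratio, a −log10 p and a −log10 q were deposited for every peak, with peaks called per sample. They describe single peaks, and the fold ranked peaks within a list.

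Peaks overlapping by at least 1 bp were joined, the strongest peak by fold giving the summit. A call after dsCP190 was any overlapping peak. Fragments at the summit and local background were solved from the deposited fold, read as (fragments + 1)/(background + 1), and the Poisson −log10 p. From 99.89% to 100% of recovered fragment numbers in each CLAMP list were whole within 0.05, and all of 600 simulated peaks were recovered within that margin. Read totals were not used, so depth is known only as the ratio of backgrounds. Genes were 13922 protein-coding genes of a RefSeq table for Release 6, without strand or exons. Sequence motifs were not analysed here.

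Shares carry 95% Wilson intervals. The list share was set between libraries with an exact permutation test, two-sided. Nothing in the labels says that replicates were separate cultures, so its p reflects no more than the possibly technical spread among these samples. Members, gene lists and alternatives were chosen with earlier results of these data known. Named regions were the first 10 by mock percentile, the first 5 of each call pattern, the farthest, and, per gene list, its members. Computation used Python 3.11.15, pandas 2.3.3, numpy 2.4.6 and scipy 1.17.1.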

Additional observations from a re-analysis of the deposited data

How the results depend on the processing

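The number of regions ran from 215 to 379 over 14 alternatives, and 37 regions near homeodomain or patterning genes became 28 to 48. Shares called in dsCP190 replicate 1, replicate 2, both and neither were 53.8%, 26.2%, 26.2% and 46.2%. At a −log10 q of 10 or more, replicate 1 called 60% and neither list 40% of 215 regions, and CP190 was called in dsCP190 replicate 1 at 0.465% in place of 8.31%. With a dsCP190 peak required to cover 50% of the region, the 4 shares were 46.8%, 17.9%, 17.9% and 53.2%. With 1 mock CLAMP or CP190 list left out, they ran from 44.6% to 54.2% in replicate 1, from 21.5% to 27.1% in replicate 2 and in both, and from 45.8% to 55.1% in neither. Read from replicate 2 alone, 73.8% had no call, and read from replicate 1 alone, 53.8% had one. Among the 232 regions deep enough after scaling, replicate 2 called 34.1%. The difference from other CLAMP regions of equal mock strength, −10.8 points in replicate 1, was −2.78 with strata by fragments and −9.01 without the members of proximal 3L; in replicate 2 it was 4.47, from 3.45 to 7.09. The difference in list share, 1.21 points, was −0.861 without dsCP190 replicate 2 and 3.28 without replicate 1. The replicate block gave 1.21 with an exact p of 1. Replicate numbers were not taken to pair libraries, since they are not stated to do so. Same-numbered differences correlated at 0.0602 over the 570 regions called in all 4 CLAMP lists. Those are a selected set, so this value cannot exclude pairing. Strata by −log10 p, by fragments and without proximal 3L, and the scaled set, were chosen after seeing the data; the cause of each shift was not tested. The motif alternatives were not run. Shallower dsCP190 CLAMP libraries limit what calls at weak regions can show.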

Other observations

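A few single regions stood apart by their values. The region 3L:14272117-14274631 near fz, which was 2515 bp wide and had 2 peaks in each mock list, held 334 fragments in mock replicate 1, 124 in mock replicate 2, 36 in dsCP190 replicate 1 and 60 in dsCP190 replicate 2, with strongest mock summits 1143 bp apart. It was the 1 region of 79 called in both dsCP190 lists with more fragments in replicate 2, but its strongest dsCP190 summits were 1155 bp apart, so these values are of different peaks. The least deep members were 3R:3434161-3434704, between spok and Parp1, with 9 and 16 fragments and folds of 5.09 and 4.57, and 2R:3650293-3650714 near RYa, with 13 and 8 fragments and folds of 5.77 and 3.81. The RYa region also had the highest CP190 fold of any member in dsCP190 replicate 1, at 6.15. By fragments rather than fold, the highest mock signal among members called in dsCP190 replicate 1 only was at 2L:13090782-13091945, with 306 and 278 fragments in mock cells and 92 in dsCP190 replicate 1. These regions were chosen after their values were seen.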
